A study of Homo sapiens with 6 samples.

Results

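The genes described here are those of the main families of amino acid transporters that were measured in SBC-3 cells, a human small cell lung cancer line. They are the protein-coding rows of the deposited table whose symbol starts with SLC1A, SLC3A, SLC6A, SLC7A, SLC16A10, SLC36A, SLC38A or SLC43A and whose value was at least 10 in at least 2 of the 6 libraries. The rule found 35 genes among 25827 features, of which 21773 passed the same filter. No row with these prefixes was lost to the filter. SLC43A2 stood in the table under 2 Ensembl identifiers with the same values and was counted once. The 35 include SLC7A6OS, which matches the prefix but is a gene of another kind lying opposite SLC7A6, so that 34 are transporters.

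Nascent RNA was measured by PRO-seq, a run-on assay that labels the RNA at the end held by engaged polymerases in permeabilized cells. SBC-3 cells, labelled WT, were reverse transfected with 10 nM of a control siRNA (siCtrl) or of either siRNA against SFPQ, a nuclear RNA-binding protein (siSFPQ-2 and siSFPQ-3), and were harvested at 72 h. Each group had 2 libraries. The labels do not say that these were separate cultures, so p-values measure only the spread between these libraries, which may be technical.

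Amino acid transporters move amino acids across the plasma membrane and the membranes of lysosomes. Exchangers trade an amino acid inside the cell for another outside, sodium-coupled carriers concentrate amino acids against a gradient, and facilitators let them move down it. Light chains of the SLC7 family reach the cell surface bound to a heavy chain of the SLC3 family. Cancer cells are known for high uptake of glutamine, leucine and cystine, and several of these genes are textbook targets of the amino acid response driven by the factor ATF4.

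The libraries held 12072813 to 18475158 whole reads, and 1 read was worth 0.797 to 1.108 normalized reads. SFPQ itself gave 2294 and 2435 normalized reads under siCtrl, against 1825 and 1972 under siSFPQ-2 and 1922 and 2466 under siSFPQ-3. These groups overlapped (log2 fold change -0.22 ± 0.11 (SE), limma adjusted p = 0.137), and since an siRNA acts on the mature RNA, nascent reads of SFPQ do not check the knockdown. Of 10 neuroendocrine markers of small cell lung cancer, 6 had values, with NEUROD1 at 27.1 and 31.0 normalized reads in the siCtrl libraries. The summed level of 5 epithelial markers was 1117 to 1216 normalized reads with siCtrl and 3102 to 4156 with the SFPQ siRNAs. Of these, KRT8, KRT18 and ELF3 rose, CLDN7 fell (log2 fold change -0.80, limma adjusted p = 0.0117) and EPCAM did not pass the test (0.10, adjusted p = 0.609). The sum of 5 fibroblast markers was 1361 to 1398 and 2820 to 3954, with 3 higher and none lower. The 6 neuroendocrine markers summed to 890 to 918 and 1170 to 1511, and of the 5 tested RTN1 and SYT11 rose while DLL3 fell (-0.83, adjusted p = 0.0073) and NEUROD1 had -0.94 (adjusted p = 0.0506). The 6 non-neuroendocrine markers summed to 6477 to 6809 and 7694 to 8632, with 3 higher and 2 lower. The 3 immune markers with values summed to 752 and 504 to 783. CD68 fell, and ITGAX and CD79A, both below 20 with siCtrl, rose. ITGAX gave 4.78 and 2.22 with siCtrl and 22.6 to 41.0 with the SFPQ siRNAs. ANXA1, among the 3 higher non-neuroendocrine markers, gave 6.38 and 4.43 with siCtrl. Both passed the filter of 10 only through the siSFPQ libraries, so their selection favoured a rise. The part of these shifts in the transporter values was not tested. In bulk nascent RNA, fewer cells of a type and less RNA per cell cannot be told apart.

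With both siRNAs pooled against siCtrl, 14 of the 35 genes rose, 12 fell and 9 did not pass the test. Over all 21773 tested features, 24.8% were called higher and 23.2% lower, or 48.0% in either direction. The test was limma on log2(normalized reads + 1) with Benjamini-Hochberg adjustment over all features and a threshold of 0.05. The median log2 fold change was 0.07 over the 35 genes and -0.02 over all tested features, where the 5th and 95th percentiles were -1.04 and 1.49. The genes of the list thus lay on both sides of a middle close to that of all features. The 5 largest increases were SLC6A12, SLC7A11, SLC6A13, SLC38A8 and SLC1A3, and each exceeded the 95th percentile of all features. The 2 largest decreases, SLC38A4 and SLC6A9, lay below the 5th percentile. All 4 siSFPQ libraries stood above both siCtrl libraries for 14 genes and below them for 13 (30.3% and 31.0% of all tested features, 61.3% on either side), and 8 genes overlapped.

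The calls were not equally firm. In each of the 15 other settings tried, 10 genes stayed higher (SLC1A3, SLC38A1, SLC38A2, SLC38A6, SLC38A8, SLC43A2, SLC6A12, SLC6A13, SLC6A6 and SLC7A11) and 4 stayed lower (SLC38A4, SLC43A1, SLC6A15 and SLC6A9), wherever the gene was tested. Leaving out siCtrl replicate 1 ended 11 calls and left 5 of the 35 genes lower, and over all features the number called lower went from 5044 to 2463. The other calls that ended without a library are given with the genes.

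**Figure D1:**
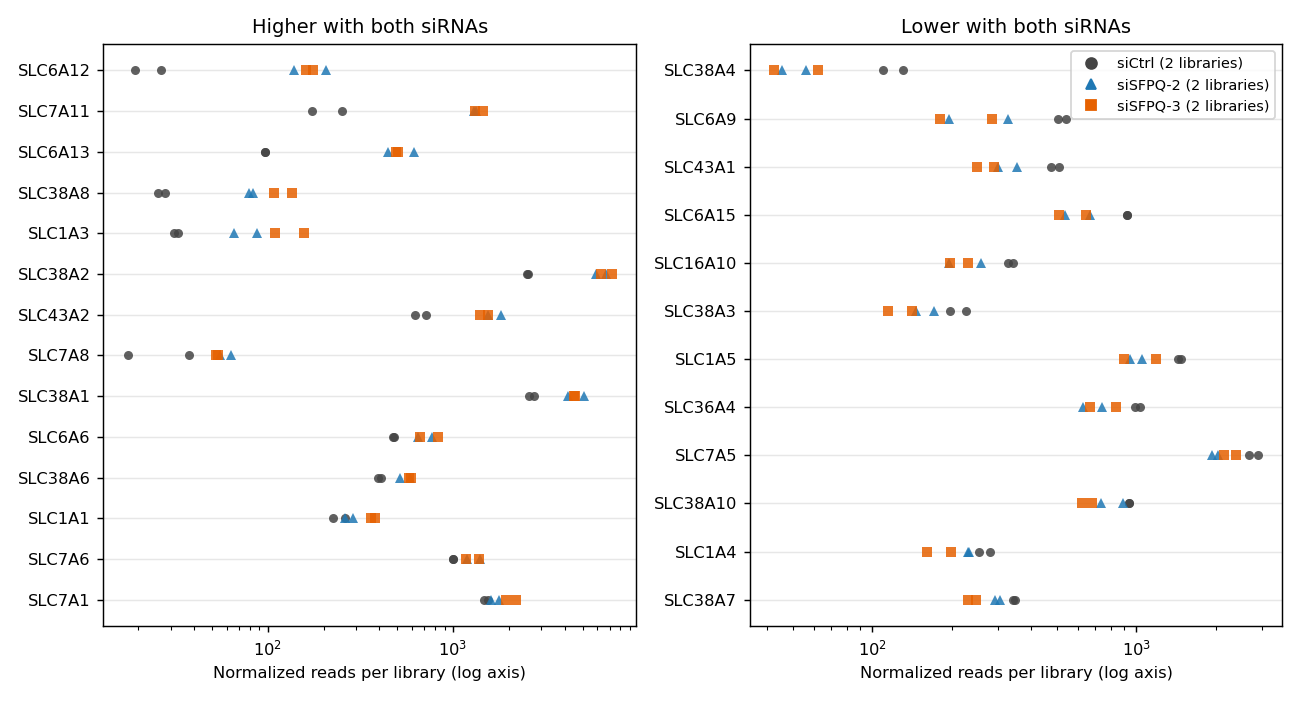
Normalized reads in each of the 6 libraries (log axis) for the 14 transporter genes that rose (left) and the 12 that fell (right) with both siRNAs against siCtrl, with 1 point per library. SLC7A11 lies at 173 and 251 with siCtrl and at 1299 to 1442 with the SFPQ siRNAs, while SLC7A5 lies at 2664 and 2896 with siCtrl and at 1943 to 2381 with the SFPQ siRNAs.

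**Figure D2:**
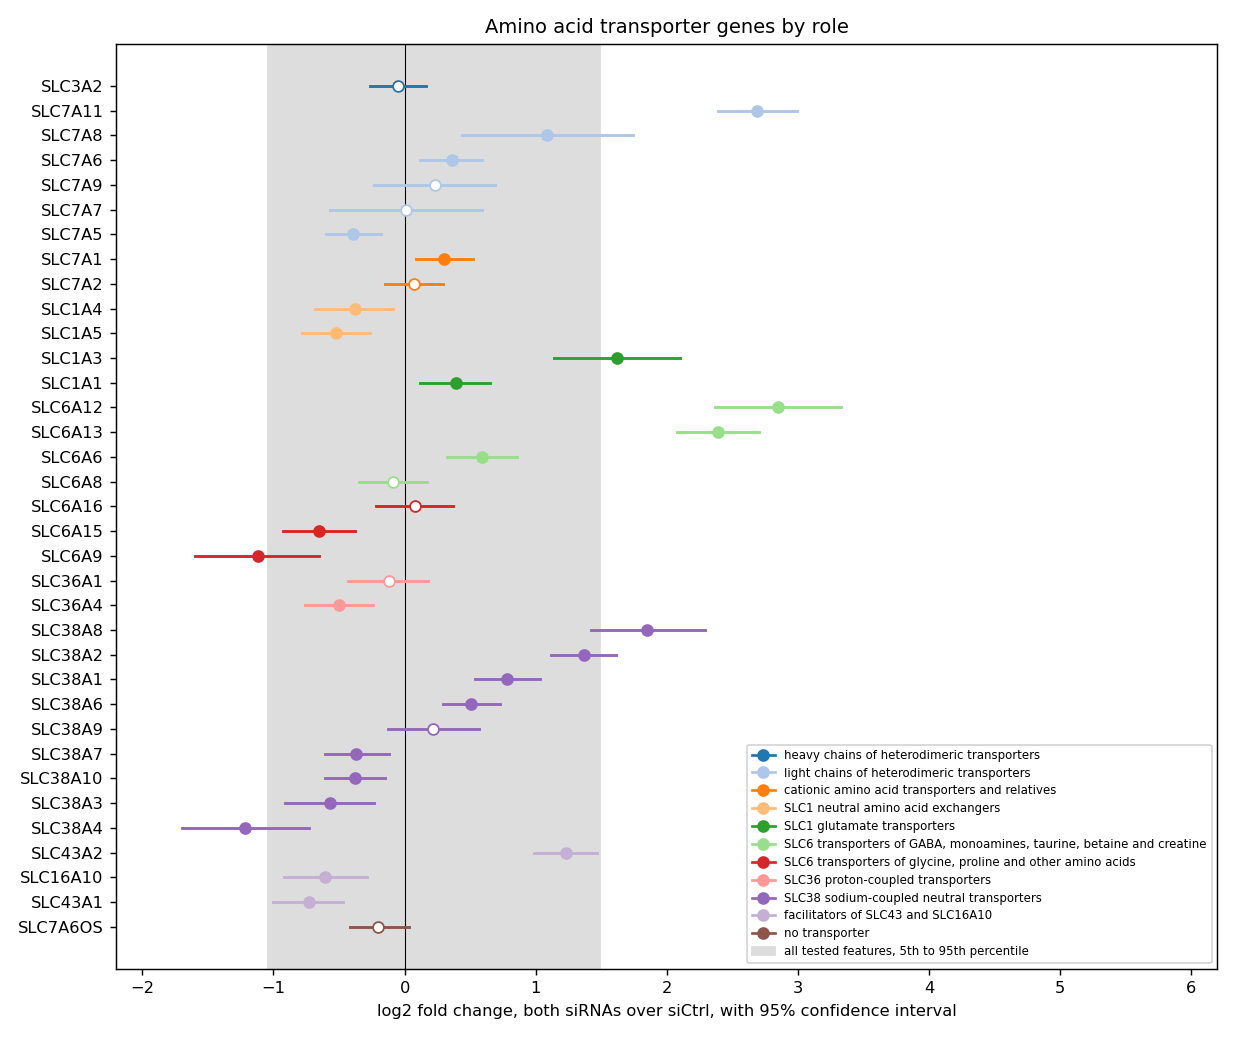
Log2 fold change of both siRNAs over siCtrl with its 95% confidence interval for the 35 genes, grouped by role; filled points passed the limma test at an adjusted p under 0.05. The grey band spans the 5th to 95th percentile of all tested features (-1.04 to 1.49); 5 genes lie to its right and 2 to its left.

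The level of a gene against another was read as normalized reads per kb of its span in the RefSeq gene table of GRCh38.p14. By this measure SLC38A2 was highest with siCtrl at 173 reads per kb, followed by SLC1A5 at 106, SLC6A8 at 99.0 and SLC7A5 at 70.4. The lowest by the same measure were SLC1A3 at 0.347 and SLC7A8 at 0.473. With the SFPQ siRNAs SLC38A2 stood at 447 reads per kb and remained first. SLC1A5 went from rank 2 to rank 3, and SLC7A11 went from rank 24 to rank 11. This order depends on the measure, and which bases of a span gave reads is not known. In some genes, SLC3A2 (36.4 reads per kb with siCtrl) among them, the RefSeq promoter entry puts the start inside the span. Their values per kb may thus be too low. In the authors' deposited profiles, mean signal per bin inside the gene was highest for SLC3A2 with siCtrl, at 1660. It was then 650 for SLC38A2, 451 for SLC6A15, 218 for SLC6A8, 104 for SLC1A5, 39.0 for SLC7A5 and 9.86 for SLC1A3. With the SFPQ siRNAs SLC38A2 was highest there, at 1780 against 1520 for SLC3A2. How those bins were scaled is also unknown. The 34 transporters together held 0.161 and 0.172% of the normalized reads of the siCtrl libraries and 0.209 to 0.217% of those of the siSFPQ libraries. SLC38A2 took 10.8% of the transporter reads with siCtrl and 21.4% with the SFPQ siRNAs, SLC38A1 11.4 and 15.0%, and SLC7A11 0.909 and 4.43%. SLC7A5 took 11.9 and 6.98%, and SLC1A5 6.24 and 3.35%. These shares are of reads and not per length, so a long gene takes more of them.

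The bases before the start of 5 genes are shown because these genes moved in opposite directions and have a start at the edge of their RefSeq span. SLC38A2, SLC6A13 and SLC1A3 rose, and SLC43A1 and SLC7A5 fell. Each line holds the 250 bases before the start, 5′ to 3′ on the gene's strand, from RefSeq's GRCh38.p14 table. The windows are chr12:46372774-46373023 (minus strand), chr12:262837-263086 (minus), chr5:36596338-36596587 (plus), chr11:57515703-57515952 (minus) and chr16:87869508-87869757 (minus). Capitals mark a match to TGATGNAA, the core of the element bound by C/EBP and ATF factors, in SLC1A3, and to CACGTG, the E-box, in SLC43A1 and SLC7A5.
SLC38A2: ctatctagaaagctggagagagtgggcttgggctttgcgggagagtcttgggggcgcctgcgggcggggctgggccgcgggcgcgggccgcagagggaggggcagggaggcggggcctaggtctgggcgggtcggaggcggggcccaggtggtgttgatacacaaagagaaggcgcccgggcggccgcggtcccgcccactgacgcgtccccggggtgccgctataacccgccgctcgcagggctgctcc
SLC6A13: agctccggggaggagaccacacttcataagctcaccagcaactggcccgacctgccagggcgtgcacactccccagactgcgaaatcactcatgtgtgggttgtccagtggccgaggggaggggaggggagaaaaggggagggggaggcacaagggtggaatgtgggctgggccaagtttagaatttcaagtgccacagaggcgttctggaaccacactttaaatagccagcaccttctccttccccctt
SLC1A3: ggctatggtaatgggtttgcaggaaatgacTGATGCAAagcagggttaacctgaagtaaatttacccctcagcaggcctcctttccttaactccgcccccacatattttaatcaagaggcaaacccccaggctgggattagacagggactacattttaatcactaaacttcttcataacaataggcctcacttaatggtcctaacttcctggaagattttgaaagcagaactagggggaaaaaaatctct
SLC43A1: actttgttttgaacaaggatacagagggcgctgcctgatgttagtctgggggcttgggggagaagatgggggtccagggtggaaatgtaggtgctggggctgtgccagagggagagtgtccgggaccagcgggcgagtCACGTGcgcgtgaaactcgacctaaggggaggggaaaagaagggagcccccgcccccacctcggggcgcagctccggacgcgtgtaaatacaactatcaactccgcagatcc
SLC7A5: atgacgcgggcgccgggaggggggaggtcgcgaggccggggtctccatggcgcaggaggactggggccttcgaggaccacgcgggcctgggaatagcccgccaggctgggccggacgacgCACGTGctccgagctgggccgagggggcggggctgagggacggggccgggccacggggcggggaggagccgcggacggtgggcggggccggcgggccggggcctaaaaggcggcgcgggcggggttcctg

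A promoter entry was matched by symbol for 29 of the 35 genes, and SLC38A3, SLC6A12, SLC6A15, SLC6A6, SLC7A11 and SLC7A2 had none. Each motif was searched on both strands in the 250 bases before the start. TGATGNAA was present in 1 of the 29 windows, that of SLC1A3, and in 3.19% of 27305 RefSeq promoters. CACGTG was found in 3, those of SLC43A1, SLC7A5 and SLC6A16, and in 6.49% of all promoters. TGACNNNGC, the core of the antioxidant response element, occurred in 4, those of SLC3A2, SLC7A1, SLC7A7 and SLC7A6, and in 11.0% of all. A match is a description of these letters in this window. The GC content of the 29 windows ran from 35.6% in SLC7A9 to 84.4% in SLC7A1 with a median of 64.4%, and the median over all promoters was 58.0%.

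Among the heterodimeric transporters, the gene of the heavy chain did not pass the test while those of its light chains went both ways. SLC3A2 encodes the heavy chain shared by most SLC7 light chains. It gave 992 to 1243 normalized reads over the 6 libraries, its groups overlapped, and its log2 fold change was -0.05 with a 95% interval of -0.26 to 0.16 (limma adjusted p = 0.681). Of 6 light chain genes, 3 rose and 1 fell, where 24.8% of all tested features were called higher and 23.2% lower. The 6 include SLC7A9, which pairs with another heavy chain, SLC3A1.

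SLC7A11 encodes xCT, the light chain that takes up cystine in exchange for glutamate and so feeds glutathione synthesis. It lies at chr4:138164097-138242349 (GRCh38.p14). It gave 251 and 173 normalized reads under siCtrl, against 1299 and 1334 under siSFPQ-2 and 1442 and 1320 under siSFPQ-3. Every siSFPQ library was above 5 times the higher siCtrl library. This was 6.44-fold, with a log2 fold change of 2.69 ± 0.14 (SE) and an adjusted p of 2.79e-07 by limma. SLC7A11-AS1, a long noncoding RNA gene, overlaps it, and the sources used here do not state whether the authors' counting used strand, so reads of the pair may not be separated.

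SLC7A8, a light chain for large and small neutral amino acids, was among the lowest of the 35 genes. Its values were 17.5 and 37.7 under siCtrl, against 55.3 and 63.1 under siSFPQ-2 and 52.7 and 53.7 under siSFPQ-3. The siCtrl libraries differed from each other by more than the siSFPQ libraries did. The fold was 2.13, with a log2 fold change of 1.09 ± 0.29 (SE) and an adjusted p of 0.0107, and without siCtrl replicate 1 the log2 fold change was 0.56 (adjusted p = 0.156). SLC7A6, which exchanges cationic for neutral amino acids, gave 999 and 1001 normalized reads under siCtrl, against 1187 and 1394 under siSFPQ-2 and 1175 and 1387 under siSFPQ-3. The groups did not overlap, but the gap was small (1.28-fold, adjusted p = 0.0177). The SLC7A6 call ended without siCtrl replicate 1 (log2 fold change 0.36, adjusted p = 0.112), siCtrl replicate 2 (0.36, adjusted p = 0.112) or siSFPQ-2 replicate 2 (0.30, adjusted p = 0.0506). Its last 3.8 kb overlap SLC7A6OS on the other strand, which gave 432 to 537 normalized reads and did not pass the test (log2 fold change -0.20, adjusted p = 0.141).

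SLC7A5, at chr16:87830023-87869507, encodes the light chain that imports leucine and other large neutral amino acids and is a well known cancer transporter. It fell, with 2896 and 2664 normalized reads under siCtrl, against 1943 and 2032 under siSFPQ-2 and 2141 and 2381 under siSFPQ-3. The 4 siSFPQ libraries were below both siCtrl libraries. The level was 0.763 times that of siCtrl, with a log2 fold change of -0.39 ± 0.10 (SE) and an adjusted p of 0.00677 by limma, and without siCtrl replicate 1 the log2 fold change was -0.33 (adjusted p = 0.0897). SLC7A5-AS1 overlaps the gene on the other strand, so that these reads too may not be separated by the counting. The remaining light chains overlapped between groups: SLC7A7, a cationic amino acid exchanger of epithelia and macrophages, ranged over 31.0 to 56.1 normalized reads (log2 fold change 0.01, 95% interval -0.57 to 0.59), and SLC7A9, a cystine and dibasic amino acid carrier, over 58.7 to 91.4 (0.23, -0.23 to 0.69). The sign of the SLC7A7 value turned when libraries were scaled to the same total (-0.03).

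SLC7A1, the widely expressed importer of arginine and lysine, rose by a small amount. Its siCtrl values were 1476 and 1535 normalized reads and its siSFPQ values 1612 to 2175. The log2 fold change was 0.30 ± 0.10 (SE, limma adjusted p = 0.0222). This call ended without siCtrl replicate 1 (0.28, adjusted p = 0.154), siCtrl replicate 2 (0.33, adjusted p = 0.0972) or siSFPQ-2 replicate 2 (0.27, adjusted p = 0.0644). SLC7A2, a cationic amino acid transporter of liver and activated macrophages, gave 1067 and 1027 normalized reads under siCtrl, against 997 and 859 under siSFPQ-2 and 1356 and 1258 under siSFPQ-3. The siCtrl values lay between those of the siRNAs, and the log2 fold change for both was 0.07 (adjusted p = 0.574).

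In the SLC1 family the exchangers of neutral amino acids fell and the glutamate transporters rose. SLC1A5, at chr19:46774883-46788594, is the main glutamine exchanger of many cancer cells. It gave 1473 and 1440 normalized reads under siCtrl, against 947 and 1052 under siSFPQ-2 and 898 and 1187 under siSFPQ-3. All siSFPQ values lay below both siCtrl values. The level was 0.697 times that of siCtrl, with a log2 fold change of -0.52 ± 0.12 (SE) and an adjusted p of 0.00441 by limma, and without siCtrl replicate 1 the log2 fold change was -0.50 (adjusted p = 0.0550). SLC1A4, which exchanges alanine, serine and cysteine, gave 279 and 255 normalized reads under siCtrl, against 231 and 233 under siSFPQ-2 and 199 and 162 under siSFPQ-3. The groups were apart, and the level was 0.766 times that of siCtrl with a log2 fold change of -0.38 ± 0.13 (SE) and an adjusted p of 0.0351. The SLC1A4 call ended without any of 5 libraries, namely siCtrl replicate 1 (log2 fold change -0.32, adjusted p = 0.229), siCtrl replicate 2 (-0.45, 0.106), siSFPQ-2 replicate 1 (-0.38, 0.0572), siSFPQ-2 replicate 2 (-0.39, 0.0604) and siSFPQ-3 replicate 2 (-0.31, 0.0749). DESeq2 on the recovered reads did not call it either (adjusted p = 0.0804).

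SLC1A3, at chr5:36596588-36688334, encodes a glutamate transporter best known from astrocytes. It was among the lowest of the members with siCtrl and rose. Its values were 32.7 and 31.0 under siCtrl, against 66.0 and 87.5 under siSFPQ-2 and 110 and 156 under siSFPQ-3. The groups did not overlap, and both siSFPQ-3 libraries were above both siSFPQ-2 libraries. This was 3.07-fold for both siRNAs, with a log2 fold change of 1.62 ± 0.22 (SE) and an adjusted p of 1.88e-04 by limma. SLC1A3-AS1 overlaps it on the other strand. SLC1A1, the glutamate and cysteine transporter of neurons and kidney, had siCtrl values of 226 and 260 normalized reads and siSFPQ values of 260 to 378, so that the groups touched after rounding. Its log2 fold change was 0.39 ± 0.12 (SE, adjusted p = 0.0206). The SLC1A1 call ended without siCtrl replicate 1 (0.49, adjusted p = 0.0502), without siCtrl replicate 2 (0.29, adjusted p = 0.205) and with DESeq2 (0.39, adjusted p = 0.0537).

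The SLC6 carriers of GABA, betaine and taurine rose, and carriers of glycine and neutral amino acids fell. SLC6A12 encodes a transporter of the osmolyte betaine that also takes up GABA. SLC6A13, its neighbour, encodes a GABA and taurine transporter of liver, kidney and brain coverings. They lie 6.5 kb apart, at chr12:183848-214157 and chr12:220622-262836. SLC6A12 gave 19.1 and 26.6 normalized reads under siCtrl, against 139 and 207 under siSFPQ-2 and 161 and 176 under siSFPQ-3. The lowest siSFPQ library was above 5 times the highest siCtrl library. This was the largest increase of the 35 genes at 7.22-fold, with a log2 fold change of 2.85 ± 0.22 (SE) and an adjusted p of 3.77e-06 by limma. For SLC6A13 the values were 96.4 and 96.4 under siCtrl, against 445 and 612 under siSFPQ-2 and 502 and 492 under siSFPQ-3. Again the groups stood far apart, at 5.24-fold with a log2 fold change of 2.39 ± 0.14 (SE) and an adjusted p of 6.43e-07. SLC6A12-AS1 overlaps SLC6A12 on the other strand and may share reads with it. LOC102723544, a long noncoding RNA gene, overlaps SLC6A13 on the same strand, so reads of that pair may not be separated either. SLC6A12 lies past the end of SLC6A13. In the deposited profiles, all siSFPQ libraries were above both siCtrl libraries at every plotted point past the assumed end of SLC6A13. Whether transcription running past SLC6A13 gave part of the SLC6A12 reads was not tested. The increases of these neighbours are thus not shown to be separate.

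SLC6A6, the taurine transporter, gave 477 and 483 normalized reads under siCtrl, against 645 and 772 under siSFPQ-2 and 661 and 832 under siSFPQ-3. The siCtrl values were close together and below all siSFPQ values. The increase was 1.51-fold, with a log2 fold change of 0.59 ± 0.12 (SE) and an adjusted p of 0.00243 by limma. GRIP2 overlaps the SLC6A6 span. SLC6A8, the creatine transporter, was the third highest gene per kb of RefSeq span with siCtrl. It overlapped between groups at 728 to 948 normalized reads (log2 fold change -0.09, 95% interval -0.35 to 0.17).

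SLC6A9, at chr1:43996483-44031462, encodes the glycine transporter that clears glycine around synapses and supplies it to red cell precursors. It gave 544 and 505 normalized reads under siCtrl, against 327 and 196 under siSFPQ-2 and 285 and 181 under siSFPQ-3. All siSFPQ values were below both siCtrl values, with a wide spread within each siRNA. The level was 0.459 times that of siCtrl, with a log2 fold change of -1.12 ± 0.21 (SE) and an adjusted p of 0.00162 by limma. CCDC24 overlaps SLC6A9 on the other strand. SLC6A15, a transporter of proline and branched-chain amino acids found mostly in brain, gave 923 and 923 normalized reads under siCtrl, against 666 and 537 under siSFPQ-2 and 647 and 508 under siSFPQ-3. Its siCtrl values were equal after rounding and above every siSFPQ value. The level was 0.635 times that of siCtrl, with a log2 fold change of -0.65 ± 0.13 (SE) and an adjusted p of 0.00168. SLC6A16, an orphan member, overlapped between groups at 282 to 395 normalized reads (log2 fold change 0.08, adjusted p = 0.666), and its span overlaps CD37.

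Of the proton-coupled SLC36 carriers, SLC36A4 fell and SLC36A1 did not pass the test. SLC36A4, which carries proline and tryptophan, gave 1029 and 989 normalized reads under siCtrl, against 742 and 629 under siSFPQ-2 and 838 and 666 under siSFPQ-3. Its groups were apart. The level was 0.709 times that of siCtrl, with a log2 fold change of -0.50 ± 0.12 (SE) and an adjusted p of 0.00545 by limma, and without siCtrl replicate 1 the log2 fold change was -0.47 (adjusted p = 0.0678). SLC36A1, an exporter of small amino acids from lysosomes, ranged over 180 to 233 normalized reads with a log2 fold change of -0.12 (95% interval -0.43 to 0.18), and its span overlaps SLC36A2 and FAT2.

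The sodium-coupled neutral transporters of the SLC38 family were the largest group, and of its 9 measured genes 4 rose and 4 fell. Over all tested features 24.8% were called higher and 23.2% lower. SLC38A1, SLC38A2 and SLC38A4, the carriers of the classical system A for glutamine and alanine, lie in a row on chromosome 12. SLC38A2, at chr12:46358188-46372773, is the system A carrier known to be induced when amino acids run short. It gave 2528 and 2512 normalized reads under siCtrl, against 5944 and 6676 under siSFPQ-2 and 6268 and 7192 under siSFPQ-3. The siCtrl libraries agreed within 1% of each other, and every siSFPQ library was more than 2 times as high. This was 2.58-fold, with a log2 fold change of 1.37 ± 0.11 (SE) and an adjusted p of 5.39e-06 by limma. SLC38A1, whose span ends 89.1 kb away, is a glutamine importer of many proliferating cells and gave 2743 and 2558 normalized reads under siCtrl, against 4184 and 5082 under siSFPQ-2 and 4482 and 4533 under siSFPQ-3. Its groups did not overlap either, at 1.72-fold with a log2 fold change of 0.78 ± 0.11 (SE) and an adjusted p of 2.40e-04. SLC38A4, the liver and placenta member 392.0 kb on the other side of SLC38A2, moved the opposite way. Its values were 110 and 131 under siCtrl, against 56.1 and 45.4 under siSFPQ-2 and 62.4 and 42.5 under siSFPQ-3. Each siSFPQ library was below both siCtrl libraries, and the level was 0.43 times that of siCtrl, with a log2 fold change of -1.22 ± 0.22 (SE) and an adjusted p of 0.00119.

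SLC38A8, a glutamine carrier known from the retina, was low with siCtrl and rose. It gave 27.9 and 25.5 normalized reads under siCtrl, against 79.3 and 83.0 under siSFPQ-2 and 108 and 135 under siSFPQ-3. The siSFPQ-3 libraries were the highest, followed by those of siSFPQ-2. The increase was 3.61-fold, with a log2 fold change of 1.85 ± 0.20 (SE) and an adjusted p of 3.92e-05 by limma. SLC38A6, a less studied member, gave 407 and 392 normalized reads under siCtrl, against 520 and 589 under siSFPQ-2 and 579 and 591 under siSFPQ-3. The groups were apart, at 1.42-fold with a log2 fold change of 0.51 ± 0.10 (SE) and an adjusted p of 0.0021, and TRMT5 overlaps its span on the other strand.

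SLC38A3, a glutamine carrier of liver, kidney and astrocytes, gave 227 and 197 normalized reads under siCtrl, against 171 and 146 under siSFPQ-2 and 142 and 115 under siSFPQ-3. The groups did not overlap, and siSFPQ-3 had the lowest values. The level was 0.674 times that of siCtrl, with a log2 fold change of -0.57 ± 0.15 (SE) and an adjusted p of 0.0114, and without siCtrl replicate 1 the log2 fold change was -0.47 (adjusted p = 0.133). SLC38A7, which exports glutamine from lysosomes, gave 347 and 342 normalized reads under siCtrl, against 293 and 305 under siSFPQ-2 and 230 and 248 under siSFPQ-3, and SLC38A10 gave 941 and 942 under siCtrl, against 735 and 889 under siSFPQ-2 and 621 and 677 under siSFPQ-3. For both genes the siSFPQ-2 values lay between those of siCtrl and siSFPQ-3. The log2 fold changes for both siRNAs were -0.37 (limma adjusted p = 0.0203) and -0.38 (adjusted p = 0.0125). Neither call held without siCtrl replicate 1 (-0.36, adjusted p = 0.127 for SLC38A7 and -0.38, adjusted p = 0.0920 for SLC38A10) or without siCtrl replicate 2 (-0.37, adjusted p = 0.114 and -0.38, adjusted p = 0.0950), and DESeq2 did not call SLC38A7 (adjusted p = 0.0591). SLC38A9, the lysosomal arginine sensor that signals to mTORC1, overlapped between groups at 264 to 394 normalized reads, with a log2 fold change of 0.22 (adjusted p = 0.273) that passed the threshold only without siSFPQ-3 replicate 2 (0.35, adjusted p = 0.0479).

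Among the facilitators, SLC43A2 rose while SLC43A1 and SLC16A10 fell. SLC43A1 and SLC43A2 encode related carriers that release leucine and other large neutral amino acids, and SLC16A10 releases aromatic ones. SLC43A2, at chr17:1569254-1630088, gave 716 and 624 normalized reads under siCtrl, against 1543 and 1824 under siSFPQ-2 and 1399 and 1541 under siSFPQ-3. The lowest siSFPQ library was close to 2 times the highest siCtrl library. The increase was 2.35-fold, with a log2 fold change of 1.23 ± 0.11 (SE) and an adjusted p of 9.95e-06 by limma. SLC43A1, at chr11:57484534-57515702, gave 509 and 475 normalized reads under siCtrl, against 353 and 299 under siSFPQ-2 and 289 and 250 under siSFPQ-3. Its siSFPQ values lay below both siCtrl values, with siSFPQ-3 the lowest, and the level was 0.602 times that of siCtrl, with a log2 fold change of -0.73 ± 0.12 (SE) and an adjusted p of 6.86e-04. SLC16A10 gave 328 and 341 normalized reads under siCtrl, against 258 and 196 under siSFPQ-2 and 231 and 198 under siSFPQ-3. Its libraries separated by group, at 0.657 times the siCtrl level with a log2 fold change of -0.61 ± 0.14 (SE) and an adjusted p of 0.0053, and without siCtrl replicate 2 the log2 fold change was -0.58 (adjusted p = 0.0659).

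Each siRNA was also set against siCtrl on its own. With siSFPQ-2, 12 of the 35 genes rose and 8 fell, where 21.2% and 17.9% of all tested features were called (39.2% in either direction). With siSFPQ-3, 15 rose and 12 fell, where 23.0% and 20.4% of features were called (43.4% in either direction). These comparisons share the siCtrl libraries, so their values are only set side by side. The log2 fold changes with siSFPQ-2 and siSFPQ-3 were 2.65 and 2.72 for SLC7A11, 2.86 and 2.85 for SLC6A12, and 1.32 and 1.41 for SLC38A2. Among the genes that fell they were -1.23 and -1.20 for SLC38A4 and -1.05 and -1.20 for SLC6A9. SLC1A1, SLC7A1 and SLC7A2 passed the test upwards with siSFPQ-3 alone, and SLC1A4, SLC38A10, SLC38A3 and SLC38A7 downwards. With a replicate block SLC38A3 passed with siSFPQ-2 as well (-0.42, adjusted p = 0.0366). For SLC7A2 the log2 fold changes were -0.18 with siSFPQ-2 and 0.32 with siSFPQ-3 (adjusted p = 0.0414).

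The difference between the siRNAs was tested directly, and none of the 35 genes passed in either direction, where 0.0781% of all tested features were called higher and 0.023% lower with siSFPQ-3. At an unadjusted p under 0.05 there were 8 of the 35 (12.5% of all features), and edgeR and DESeq2 on the recovered reads also called 0, while a fit with a replicate block called SLC7A2 (log2 difference 0.50, adjusted p = 0.0118). The largest differences of siSFPQ-3 over siSFPQ-2 were those of SLC1A3 (log2 difference 0.78 ± 0.25 (SE), limma adjusted p = 0.235), SLC38A8 (0.56 ± 0.23, adjusted p = 0.341) and SLC7A2 (0.50 ± 0.11, adjusted p = 0.118). Without that block, the genes past the threshold with siSFPQ-3 alone are not shown to differ between the siRNAs. Single calls against siCtrl rested on few libraries. With siSFPQ-2, 11 calls ended without siCtrl replicate 1, 8 without siCtrl replicate 2 and 9 without siSFPQ-2 replicate 2, with adjusted p up to 0.161, 0.152 and 0.253, and the lower genes then numbered 1, 3 and 3. Over all features the lower calls went from 3906 to 1792, 1849 and 1984 in these settings. With siSFPQ-3, 11 ended without siCtrl replicate 1 and 9 without siCtrl replicate 2, with adjusted p up to 0.257 and 0.191, and the lower genes numbered 5 and 6, where those over all features went from 4436 to 2082 and 2127. Without siSFPQ-3 replicate 1 or 2, 4 and 5 calls ended, with adjusted p up to 0.208 and 0.216. The siSFPQ-3 call of SLC7A5 also ended without either siSFPQ-2 library (adjusted p = 0.0673 and 0.0677), and with edgeR (0.0603), DESeq2 (0.0623) or no filter on low values (0.0570). Scaling the libraries to the same total ended the siSFPQ-3 calls of SLC7A2 (adjusted p = 0.144), SLC7A6 (0.0783) and SLC7A8 (0.0611), and DESeq2 those of SLC7A2 (0.0681) and SLC7A8 (0.0708).

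**Figure D3:**
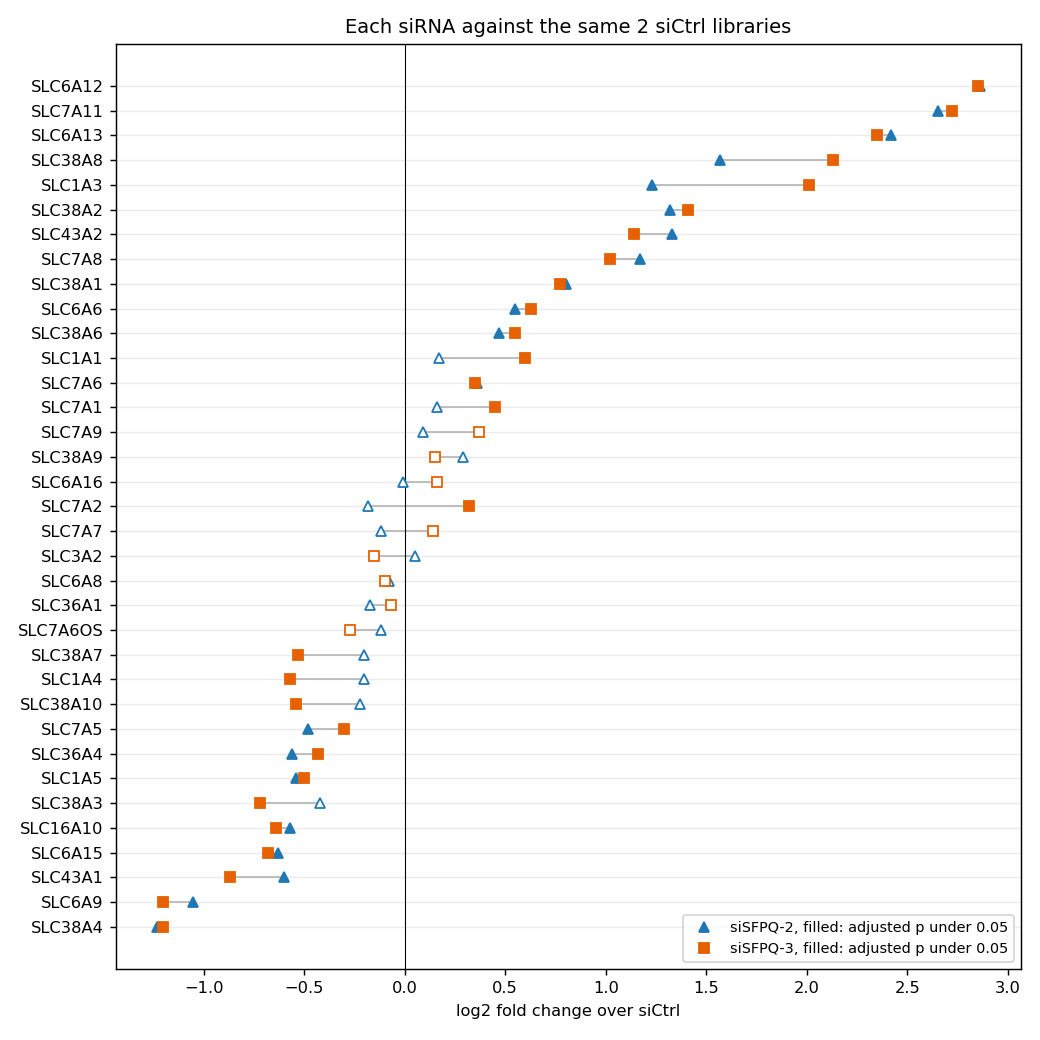
Log2 fold change over the same 2 siCtrl libraries with siSFPQ-2 (triangles) and siSFPQ-3 (squares) for the 35 genes; filled symbols passed the limma test at an adjusted p under 0.05. The symbols of a gene lie close together for most genes, and the widest gap is that of SLC1A3 (1.23 and 2.01).

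The authors' deposited table of the pooled comparison gave log2 fold changes of 2.66 for SLC7A11, 2.92 for SLC6A12 and 1.37 for SLC38A2. It gave -1.22 for SLC38A4 and -0.39 for SLC7A5. In the authors' deposited table the adjusted p was 0.0835 for SLC1A1, 0.114 for SLC1A4, 0.0901 for SLC38A7 and 0.0639 for SLC7A1, which the limma test called here. The profiles deposited by the authors in classes named up, ns and down held 10 of the 35 genes as up, 5 as down and 20 as ns. The shares of these classes over all genes are not reported here, so the counts only describe the 35 genes. The class ns was not limited to genes with a deposited adjusted p of 0.05 or more. It included SLC1A5 (0.00131), SLC38A6 (0.0016), SLC36A4 (0.00343) and SLC7A5 (0.00764). Among the 35 genes, those classed up or down had deposited log2 fold changes of 0.6 or more in size. Those classed ns had 0.56 or less.

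Those profiles give the signal in 500 bins per gene, of which the middle 300 were taken to span the gene. The position of the signal within a gene was read as the log2 ratio of the last 100 to the first 100 of these 300 bins, a quantity within 1 library that, apart from its pseudocount, does not depend on the scaling between libraries. None of the 35 genes passed the limma test on this ratio in either direction, at a median difference of 0.18 with the SFPQ siRNAs, where 1 of 23408 genes was called higher (0.00427%) and none lower (0.0%), with a median of 0.13. With a pseudocount 5 times as large 177 were called higher and 80 lower, none of them among the 33 transporter genes then tested. At an unadjusted p under 0.05 there were 6 of the 35 (22.5% of all genes). For SLC7A11 the log2 ratios were -1.21 and -0.54 under siCtrl, against 0.22 and 0.62 under siSFPQ-2 and 0.02 and 0.27 under siSFPQ-3. The groups did not overlap, but the difference of 1.16 ± 0.27 (SE) had an adjusted p of 0.103, and it was 0.55 when the first and last sixth were compared without the first 10 bins. SLC6A13 had ratios of -1.73 and -1.26 with siCtrl and -0.81 to -0.47 with the SFPQ siRNAs, a difference of 0.90 ± 0.21 (adjusted p = 0.103). That comparison of sixths gave 1.67 for SLC6A13 (adjusted p = 0.0681). SLC38A4, which fell in level, had ratios of -2.27 and -2.95 under siCtrl, -1.98 and -2.06 under siSFPQ-2 and -0.36 and -0.55 under siSFPQ-3, a difference of 1.37 ± 0.23 (adjusted p = 0.0745). For SLC38A2 the difference was 0.52 ± 0.18 (adjusted p = 0.181) and for SLC16A10 -0.58 ± 0.20 (adjusted p = 0.180).

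The share of a gene's signal in the first 10 of the 300 bins, at the start of the gene, is given without a test. The bins were taken to span each gene, so this window is longer in a long gene. Spans were 14.6 kb for SLC38A2 and 143.7 kb for SLC16A10, and the share is not a measure of pausing alone. In SLC7A11 it was 20.5 and 25.6% under siCtrl, against 11.9 and 7.50% under siSFPQ-2 and 10.1 and 10.5% under siSFPQ-3. SLC38A2 had 16.4 and 15.6% with siCtrl and 8.04 to 9.45% with the SFPQ siRNAs, and SLC43A2 had 17.2 and 14.9% and then 9.11 to 11.5%. In these 3 rising genes the siSFPQ shares were below both siCtrl shares. Over the 14 genes that rose this held for 6, with 8 overlapping. SLC6A12 was among those that overlapped, with 9.47 and 3.93% with siCtrl and 6.26 to 7.67% with the SFPQ siRNAs. Of the 12 genes that fell, 3 had lower shares in every siSFPQ library (SLC36A4, SLC38A3 and SLC38A4), 2 had higher ones (SLC16A10 and SLC38A10) and 7 overlapped. SLC36A4 had 36.4 and 38.9% with siCtrl and 24.1 to 33.8% with the SFPQ siRNAs, while SLC16A10 had 24.5 and 19.7% and then 25.1 to 37.5%. Of the 9 genes that did not pass the test in level, 4 had lower shares and 5 overlapped. In all, 13 of the 35 genes were lower and 2 higher, against 36.0% and 6.35% of 17160 protein-coding genes, so the lower shares were near the background and not limited to genes that rose.

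**Figure D4:**
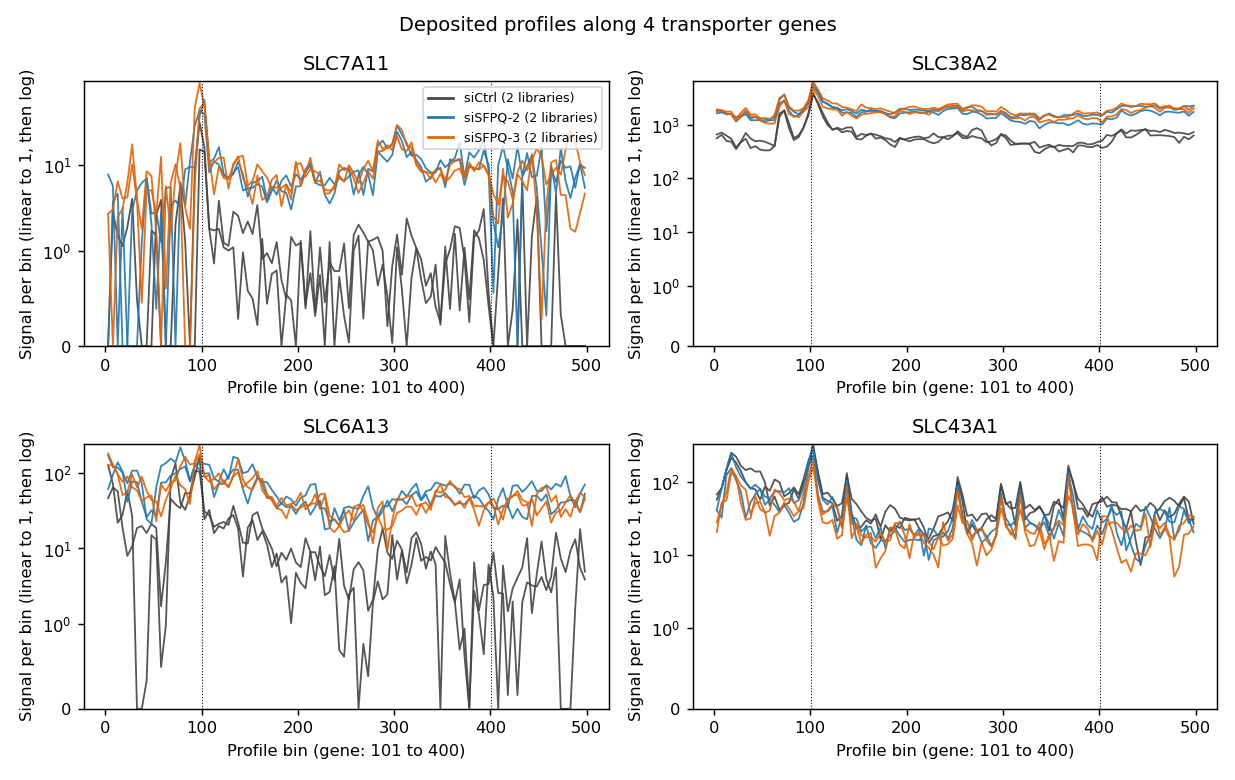
Deposited signal per profile bin (vertical axis linear up to 1 and logarithmic above) along SLC7A11, SLC38A2, SLC6A13 and SLC43A1 in each of the 6 libraries, averaged over neighbouring bins; dotted lines mark the assumed gene start and end. The siSFPQ lines lie above those of siCtrl at all 60 plotted points inside each of the 3 rising genes, and in SLC43A1, which fell, they lie below both siCtrl lines at 40 of 60 plotted points inside the gene and overlap them at 20.

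Other genes of amino acid supply and sensing moved in both directions as well, as did the tested features as a whole (24.8% higher and 23.2% lower). Of the ATF4 network, which turns on amino acid synthesis and transport under stress, 24 of 25 listed genes were tested, 5 rose and 7 fell (median log2 fold change -0.14). EIF2AK3 (0.56) and EIF2AK4 (0.53), kinases that start the stress response, and CTH (0.67), an enzyme of cysteine synthesis, rose. PSAT1 (-1.26), an enzyme of serine synthesis, and STC2 (-0.47), a secreted stress protein, fell, and so did DDIT4, an inhibitor of mTORC1, to 0.499 times its siCtrl level. Without siCtrl replicate 2 the values of CTH (0.50, adjusted p = 0.0617) and EIF2AK4 (0.35, adjusted p = 0.145) no longer passed. Of the machinery that signals amino acids to mTORC1, 35 of 37 genes were tested, 9 rose and 7 fell (median -0.01). CASTOR2 (1.04), a homologue of the arginine sensor, LAMTOR3 (0.75), a scaffold on lysosomes, and SESN3 (0.64), of the sestrin family, rose. ITFG2 (-0.58), of the KICSTOR complex, NPRL3 (-0.47), of GATOR1, and SEH1L (-0.33), of GATOR2, fell. NPRL3 did not pass without siCtrl replicate 1 (adjusted p = 0.0721) or 2 (0.111), nor SEH1L (0.132 and 0.0607).

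Of amino acid carriers of other families, 17 of 22 were tested, 2 rose and 3 fell (median log2 fold change -0.11). Beside this list and the next, 24.8% of all tested features were called higher and 23.2% lower. SLC25A18 (0.69), a mitochondrial glutamate carrier, and SLC25A13 (0.29), a mitochondrial aspartate and glutamate carrier, rose. SLC25A15 (-0.65), the ornithine carrier, CTNS (-0.60), the lysosomal cystine exporter, and SLC15A3 (-1.36), a histidine and peptide carrier, fell. SLC15A3 gave 21.5 and 24.4 normalized reads with siCtrl and 7.75 to 8.91 with the SFPQ siRNAs. All its siSFPQ values were under the minimum of the filter. It passed the filter only through the siCtrl libraries, so its selection favoured a fall. SLC25A13 did not pass without siCtrl replicate 1 (0.34, adjusted p = 0.0750), siCtrl replicate 2 (0.24, adjusted p = 0.188) or siSFPQ-2 replicate 2 (0.27, adjusted p = 0.0659), CTNS without siCtrl replicate 1 (-0.50, adjusted p = 0.0602) or SLC15A3 without siCtrl replicate 2 (-1.27, adjusted p = 0.0697). Of enzymes of glutamine, branched-chain amino acids and glutathione, 15 of 17 were tested, 1 rose and 3 fell (median -0.07). The genes that fell were BCAT2 (-0.48) and BCKDHB (-0.40), enzymes of branched-chain amino acid breakdown, and GPX4 (-0.33), a glutathione-dependent peroxidase. Of these falls, none held without siCtrl replicate 1 (adjusted p = 0.0792, 0.185 and 0.237). BCKDHB (adjusted p = 0.0521) and GPX4 (adjusted p = 0.0846) were also lost without siCtrl replicate 2, and GPX4 without siSFPQ-2 replicate 2 (adjusted p = 0.0540) or siSFPQ-3 replicate 1 (adjusted p = 0.0601).

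**Figure D5:**
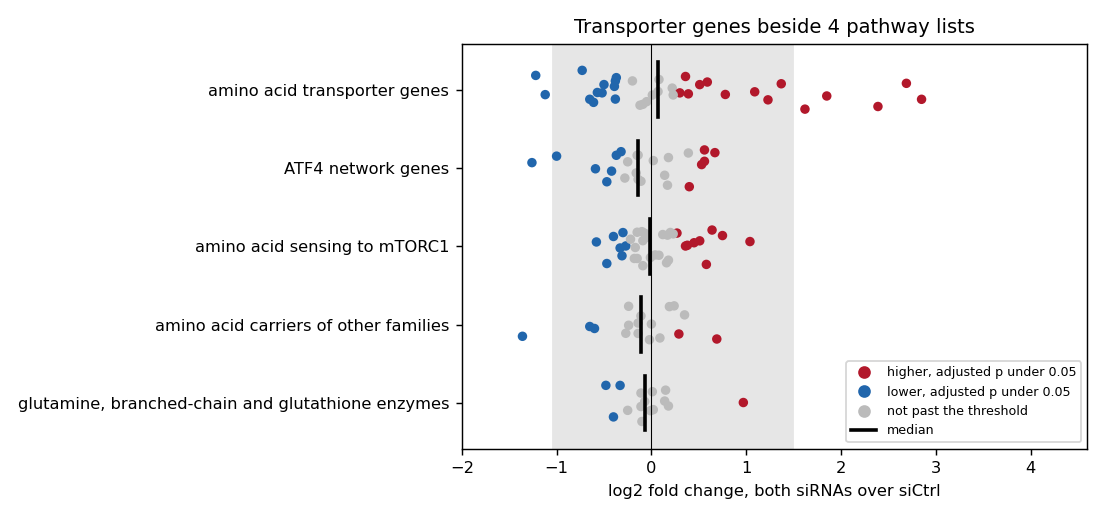
Log2 fold change of both siRNAs over siCtrl for the 35 transporter genes and 4 pathway lists, with 1 point per gene and a bar at each median (0.07, -0.14, -0.01, -0.11 and -0.07 from top to bottom). Red and blue points passed the limma test upwards and downwards, and the grey band spans the 5th to 95th percentile of all tested features.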

How the data were processed

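PRO-seq of SBC-3 cells with siCtrl, siSFPQ-2 or siSFPQ-3 was analysed from processed values, with groups taken from the labels. The submitters' processing notes name DESeq2 1.38.1, SAMtools 1.3.1, Bowtie2, cutadapt 1.14 and UMI-tools, with hg38 and dm6 as builds. The annotation, the part of each gene counted and the use of strand are not stated in these sources. The authors deposited a signal per feature, as normalized reads, and per-library profile signal in 500 bins whose size and scaling are not given. The authors' deposited table also held log2 fold changes and adjusted p-values, which are only set beside the values computed here. Of 26067 lines, 240 repeats were removed. All values (100%) were whole multiples of 1 read at a tolerance of 0.1, so whole reads were recovered.

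Features reaching 10 in 2 or more libraries were tested as log2(value + 1) by limma 3.58.1 with trend in R 4.3.3, in 1 fit of 3 groups, with Benjamini-Hochberg adjustment at 0.05. A fold change on this scale understates that of low genes. The profile ratio used a pseudocount of 7.09, the 5th percentile of positive sums of 100 bins, and limma over 23408 genes. Alternatives were pseudocounts of 0.5 and 5, no filter or a mean of at least 50, libraries scaled to the same total, median-of-ratios scaling, edgeR 4.0.16 and DESeq2 1.42.0 on recovered reads, a replicate block, and leaving out each library. Fits were tested on simulated data in which far fewer genes changed than were called here. The spread of the simulated profile ratios was set and not taken from the libraries. Those tests therefore do not give the error rate of the calls reported here. Replicates differed by more than sampling noise (chi-square per degree of freedom 10.3 to 22.7). Spans and sequences came from RefSeq (GRCh38.p14), which matched all 35 genes, and where a gene has several starts the promoter window may not be that of the counted transcript.

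The genes, their roles and the pathway and marker lists were chosen with earlier results of these data known. Of genes past the threshold, up to 12 per direction in order of p were to be given in every library, and of each pathway list up to 3 per direction by smallest p; some listed genes are counted but not reported by name here. These normalized values would not show a change of transcription shared by all genes.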

Additional observations from a re-analysis of the deposited data

Results flagged for a closer look

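Profiles were also deposited for genes of these families that have no row among the 35. In these, signal above the siCtrl libraries appeared in 2 genes whose mean was at least 1 per bin. SLC1A2, the main glutamate transporter of astrocytes, had a mean signal per gene bin of 4.17 with the SFPQ siRNAs. Its libraries gave 1.74 and 3.78 under siCtrl, against 3.93 and 3.94 under siSFPQ-2 and 4.49 and 4.33 under siSFPQ-3, so that siCtrl replicate 2 lay close to the siSFPQ libraries. SLC3A1, the heavy chain that pairs with SLC7A9, had a mean of 2.29. Its libraries gave 0.962 and 1.29 under siCtrl, against 2.09 and 2.77 under siSFPQ-2 and 1.82 and 2.49 under siSFPQ-3. The sources used here do not state the scaling between profile libraries, and neither difference was tested.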

How the results depend on the processing

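The counts of genes that rose stayed within 1.5 times the reported count in every setting tried, with 10 to 15 for both siRNAs, 8 to 12 for siSFPQ-2 and 11 to 15 for siSFPQ-3 when each library was left out. The counts of genes that fell did not, with 5 to 12, 1 to 8 and 5 to 11 when each library was left out, and other settings kept them within 1.5 times. For the difference between the siRNAs they were 0 and 0 throughout, except that with a replicate block 1 gene, SLC7A2, was higher (log2 difference 0.50, adjusted p = 0.0118). Same-numbered libraries deviated together between siSFPQ-2 and siSFPQ-3 (r = 0.382). They hardly did between siCtrl and siSFPQ-2 (r = 0.053) or siCtrl and siSFPQ-3 (r = 0.059). The main fit did not take the number to pair them. Calls of the difference between the siRNAs therefore depend on whether the block is used. With that block 572 of all features were higher with siSFPQ-3, against 17. With that block SLC38A3 was also called with siSFPQ-2. None of the genes tested changed its call in the settings tried for the late to early ratio, which covered 33 genes with the larger pseudocount, 32 with sixths and 35 otherwise. The sign turned in genes that did not pass the test: leaving out single libraries gave -0.26 to 0.01 for SLC36A1, -0.11 to 0.00 for SLC3A2, 0.00 to 0.15 for SLC6A16, -0.24 to 0.06 for SLC6A8 and -0.20 to 0.22 for SLC7A7, which was -0.03 with libraries scaled to the same total. That scaling moved the median of all features by -0.0383 and median-of-ratios scaling by 0.00153. Fewer libraries leave less to estimate the spread from; beyond that the cause was not tested. With 2 libraries per group, depth and spread limit the lowest genes (SLC7A8, SLC1A3, SLC38A8, SLC7A7) most.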

Other observations

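Profiles were deposited for 61 genes of these families, of which 26 have no row among the 35, and these are given as values with no test. SLC38A5, a glutamine carrier close to SLC38A3, had the highest signal of the 26. Its mean signal per gene bin was 87.8 and 94.9 under siCtrl, against 47.6 and 30.6 under siSFPQ-2 and 40.0 and 31.0 under siSFPQ-3. All 4 siSFPQ values were below both siCtrl values. SLC43A3, a relative of the leucine facilitators that carries nucleobases, had 2.94 and 2.46 with siCtrl and 0.604 to 1.81 with the SFPQ siRNAs. SLC6A3, the dopamine transporter, had 2.58 and 2.73 with siCtrl and 1.05 to 2.10 with the SFPQ siRNAs.

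For SLC7A7 the deposited profiles and the table of reads did not run alike. The mean profile signal per gene bin was 18.3 and 23.5 under siCtrl, against 17.8 and 6.45 under siSFPQ-2 and 12.8 and 11.2 under siSFPQ-3, so every siSFPQ library was below both siCtrl libraries. The normalized reads of the same gene were 44.6 and 46.5 with siCtrl and 31.0 to 56.1 with the SFPQ siRNAs, which overlap. SLC38A7 and SLC1A1, which were called in the table of reads, overlapped between groups in the profiles. SLC38A7 had 96.1 and 105 per gene bin under siCtrl, against 107 and 107 under siSFPQ-2 and 76.6 and 85.1 under siSFPQ-3. SLC1A1 had 1.55 and 1.39 with siCtrl and 1.51 to 1.98 with the SFPQ siRNAs. The sources used here do not state what the table and the profiles each count along these genes.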
